A study of Mus musculus with 12 samples.

Results

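Collagen chains are the polypeptides from which every collagen of the extracellular matrix is built, and each is encoded by its own gene. All protein-coding genes of the deposited table whose symbol has the form Col, number, a, number were taken, which gave 44 of 54532 listed genes. A level high enough for the test was reached by 41 of the 44, among 16393 genes tested in all. The study sequenced RNA of the whole tibialis anterior, a muscle of the shin, from mice whose muscle had been injured with glycerol, an agent that leaves fat among the regenerating fibres. All 12 samples were collected 5 days after the injection. The labels give 6 samples as wild type (control 1 to 6) and 6 as lacking Pparg in fibro-adipogenic progenitors, written "FAP no ppary" (knockout 1 to 6). Both groups carry the strain name 129svlmJ, entered in a field for cell lines. The sources used here name neither the Cre driver of the deletion nor the age or sex of the mice. They do not say that each library is a mouse of its own, and p-values therefore reflect the spread of these libraries, which may be partly technical.

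Collagen chains wind around each other in sets of 3 into a triple helix, and the class of a collagen is set by what these helices assemble into. Fibrillar collagens form the cross-striated fibrils that carry tension, type IV collagen forms the sheet-like network of basement membranes around each muscle fibre, capillary and fat cell, and type VI collagen forms beaded filaments in between. FACIT collagens (fibril-associated collagens with interrupted triple helices) decorate fibrils, and multiplexins are collagens of basement membrane zones that carry glycosaminoglycan chains. Fibro-adipogenic progenitors are resident mesenchymal cells of muscle and a main source of its fibrillar matrix after injury. They can become fat cells through Pparg, a nuclear receptor.

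Library totals ranged from 15716056 to 29790720 counts, and the mitochondrial share of counts ranged from 2.66% to 10.8%. Levels are given as CPM (counts scaled to a common library size). Pparg, the deleted gene, spanned 45.0 to 67.4 CPM in controls against 15.6 to 43.1 CPM in knockouts, without overlap. At 33 loci whose levels fell into separate high and low states, 5 pairs of libraries within groups had the same state at 78.8% to 100% of loci, against at most 72.7% for any other such pair. These pairs were controls 2 and 3, controls 4 and 5, knockouts 1 and 2, knockouts 3 and 4, and knockouts 5 and 6. The sources used here do not say whether such pairs share a litter or an animal, and the called chains and ratios are also given with each pair taken as 1 sample. Controls 2 and 6 and knockout 6 stood apart in the summed level of 6 muscle markers, which was 12408 to 14442 CPM in these and 22430.5 to 33498 CPM in the other 9. They also had the highest collagen shares of counts (2.17% to 2.34%, against 1.29% to 2.00%) and the lowest mitochondrial shares (2.66% to 3.92%, against 4.18% to 10.8%). Results are given without these 3 libraries where that ends a call. The muscle marker sum leans on abundant genes: Acta1 alone had a mean of 10910.5 CPM in controls, where the median sum was 25666 CPM. Myog, another of the 6 markers, was not low in each of these libraries. It was 326.8 CPM in control 2, the highest control, 209.7 CPM in control 6, the lowest, and 364 CPM in knockout 6, above all controls.

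The collagen chains did not share 1 direction across classes. Col15a1, a multiplexin, and Col4a1, a chain of type IV collagen, were lower in the knockout, and no chain passed the test as higher. These 2 of 41 tested chains make up 4.88%, whereas 0.75% of all tested genes were called lower, 0.0488% higher and 0.799% in either direction (adjusted p under 0.05, edgeR quasi-likelihood p adjusted by Benjamini-Hochberg over the 16393 genes). At an unadjusted p under 0.05, 8 chains (19.5%) were lower, where 5.68% of all genes were, and 2 chains (4.88%) were higher, where 3.79% of all genes were. Every tested type IV, type VI and multiplexin chain had a negative fold change (5, 5 and 2 chains), although Col4a6, a scarce type IV chain, turned to 0.039 in 1 of the 12 fits that leave out a library. Of the fibrillar chains 9 of 11 had one, of the FACIT chains 2 of 8 (1 of 8 under relative log expression or upper quartile scaling, 4 of 8 with limma-voom), and of the remaining chains 1 of 10. In all, 13 of the 41 chains changed sign in at least 1 fit with a library left out: 6 FACIT, 3 fibrillar, 1 type IV and 3 of the remaining chains. The class medians of the log2 fold change, knockout minus control, were -0.41 for type IV, -0.33 for multiplexins, -0.31 for type VI, -0.08 for fibrillar, 0.05 for FACIT and 0.21 for the other chains. Over all tested genes the median was -0.0013, with 8271 negative values and 8122 positive ones.

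**Figure D1:**
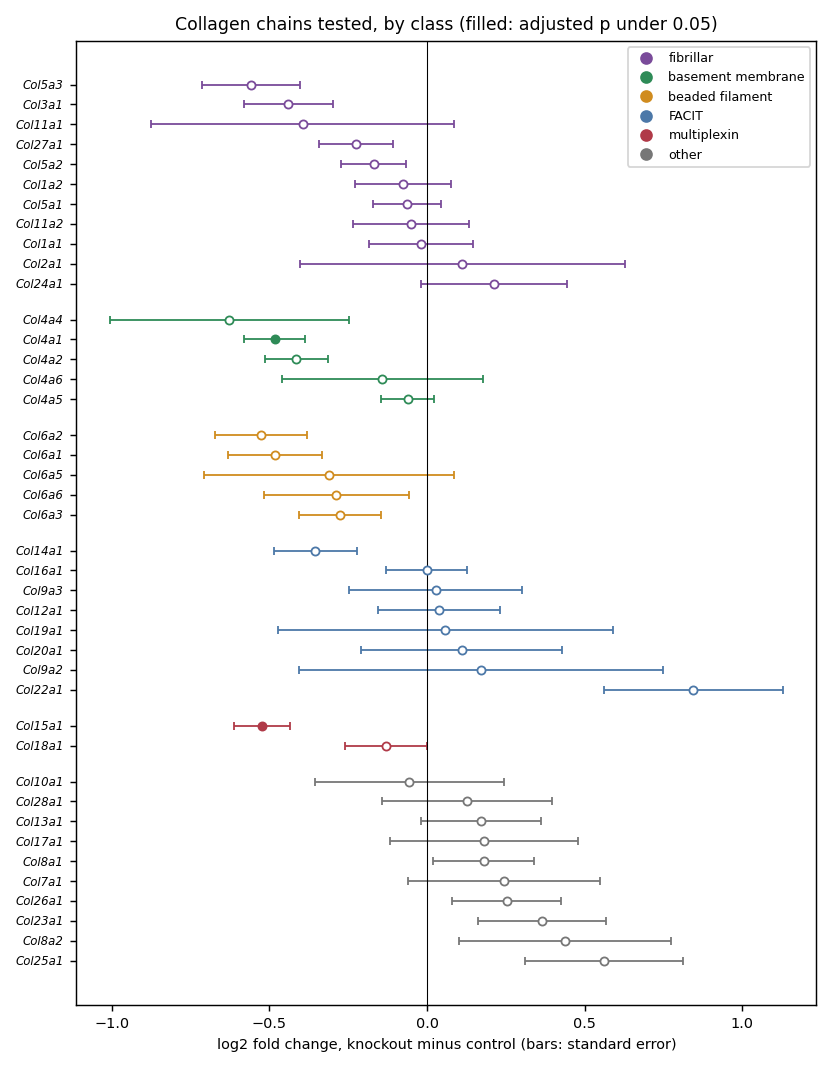
Log2 fold change (knockout minus control, horizontal axis) of the 41 tested collagen chains, grouped by class and drawn with the standard error; filled points passed the adjusted p of 0.05. Type IV, type VI and multiplexin chains lie left of 0, and Col15a1 (-0.52) and Col4a1 (-0.48) are the filled points.

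Per length, type I and type III chains made up most of the collagen RNA. On the scale of the deposited FPKM values (fragments scaled to gene length and library size), Col1a1 stood first with 593 ± 85.2 in controls against 588 ± 150 in knockouts (SD, n = 6 each). It was followed by Col3a1 (521 ± 51.6 in controls), Col1a2 (295 ± 35.9), Col6a1 (215 ± 16.3) and Col6a2 (107 ± 6.88). Neighbouring values such as Col4a1 (78.2 ± 8.39) and Col5a1 (76.7 ± 6.12), or Col15a1 (45.6 ± 3.58) and Col5a3 (45.4 ± 7.33), differed by less than their spread. The table divides by the length of all annotated exons of a gene, which for Col1a2 (12426 bases) and Col3a1 (9816 bases) is well above the longest coding transcript (5348 and 5564 bases). By the length of that transcript both chains passed Col1a1 in controls, with ratios of 1.41 in place of 0.885 for Col3a1 and 1.05 in place of 0.4995 for Col1a2. No 50-base word of the longest transcript of 33 of the 44 chains occurs in another gene, and at most 6.17% of the words of a chain do (Col9a3). The lowest places were held by Col4a3 and Col6a4, at 0.0277 and 0.0302 FPKM in controls.

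The summed FPKM of the 44 chains was 2279 ± 187 in controls against 1951 ± 401 in knockouts (SD, n = 6 each). Controls ranged from 2008 to 2537. Knockouts 3, 4 and 5 (1535, 1625 and 1723) and knockout 2 (1953) lay below all controls, while knockouts 1 and 6 (2474 and 2395) lay within the control range. As a share of this sum, fibrillar chains took 70.4% ± 2.53 in controls and 73.2% ± 1.67 in knockouts, and type VI chains took 17.3% ± 1.92 and 14.7% ± 1.54. Type IV chains took 5.80% ± 0.574 and 5.10% ± 0.683, and the other chains outside the 5 named classes took 1.35% ± 0.249 and 1.98% ± 0.493. In whole muscle, fewer cells of a type and less RNA per cell cannot be told apart, here and in all results that follow.

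**Figure D2:**
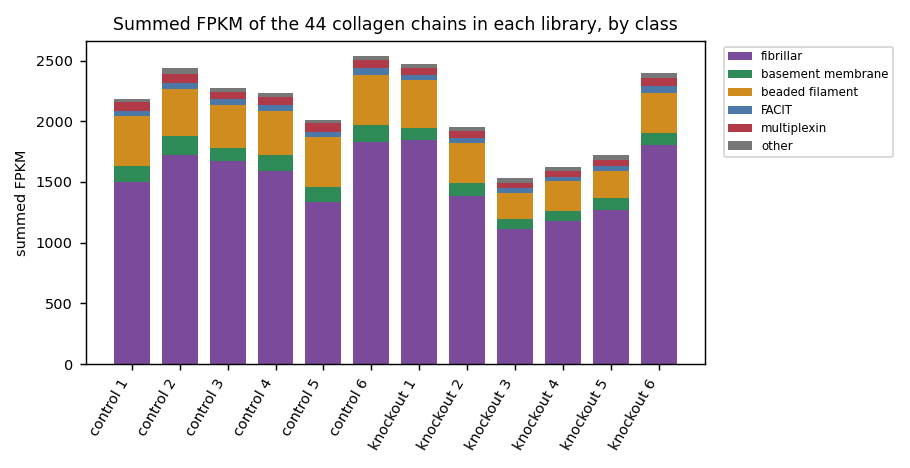
Summed FPKM of the 44 collagen chains (vertical axis) in each of the 12 libraries, stacked by class. Knockouts 3, 4 and 5 are the lowest bars (1535 to 1723), and knockouts 1 and 6 reach the height of the controls (2008 to 2537).

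Col15a1 (ENSMUSG00000028339, chr4:47208161-47313167, plus strand, GRCm38) encodes a chain of type XV collagen, which links basement membranes to the surrounding fibrils in muscle, around capillaries and around fat cells. Its lowest, median and highest values were 253, 293 and 325 CPM in controls and 181, 197 and 237 CPM in knockouts. Each of the 6 knockout libraries lay below the lowest control. Of all tested genes, 1.27% were separated in this way. The mean in knockouts was 69.6% of that in controls, with a log2 fold change of -0.52 (SE 0.09, adjusted p = 0.0208, edgeR quasi-likelihood). Without control 2, control 4, knockout 3 or knockout 4 the adjusted p was 0.0559, 0.0701, 0.0637 and 0.0652, with the pairs of libraries summed it was 0.267 at a fold change of -0.51, and without controls 2 and 6 and knockout 6 it was 0.0706 at -0.53. Exons of Col15a1 share 14 bases with Gm12426 on the opposite strand, a gene with 180 counts in all libraries against 63000.

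Type XVIII collagen, the other multiplexin, carries endostatin at its end and lies in most basement membranes. Its gene Col18a1 ranged from 126 to 218 CPM in controls (median 162) and from 126 to 183 CPM in knockouts (median 152), and the ranges overlapped almost wholly. The log2 fold change of -0.13 (SE 0.13, adjusted p = 0.882, edgeR quasi-likelihood) has a 95% interval from -0.42 to 0.16. The FPKM ratio of Col15a1 to Col18a1 within a library fell from 1.99 ± 0.317 to 1.48 ± 0.113 (SD, n = 6 each). This is a log2 difference of -0.41 (two-sided exact permutation p = 0.00866, adjusted over 8 chain ratios 0.0139, and 0.0914 with each pair of libraries averaged). Knockouts 2, 5 and 6 lay below all controls for this ratio. Control 5 lay lowest among the controls at 1.48, inside the knockout range.

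Type IV collagen of muscle is mostly a helix of Col4a1 and Col4a2 products. The genes lie head to head on chromosome 8, Col4a1 (ENSMUSG00000031502, chr8:11198423-11312826) on the minus strand and Col4a2 (ENSMUSG00000031503, chr8:11312805-11449287) on the plus strand, and their first exons overlap by 22 bases. Their promoter windows are shown because both genes are read from this one stretch of DNA and both had lower means in knockouts. Each window runs from 250 bases before to 50 bases after the RefSeq start site (GRCm38.p6), 5′ to 3′ on the strand of its gene, Col4a1 at chr8:11312777-11313076 (minus) and Col4a2 at chr8:11312555-11312854 (plus). Capitals mark the 78 bases, chr8:11312777-11312854, that the 2 windows share on opposite strands.
Col4a1: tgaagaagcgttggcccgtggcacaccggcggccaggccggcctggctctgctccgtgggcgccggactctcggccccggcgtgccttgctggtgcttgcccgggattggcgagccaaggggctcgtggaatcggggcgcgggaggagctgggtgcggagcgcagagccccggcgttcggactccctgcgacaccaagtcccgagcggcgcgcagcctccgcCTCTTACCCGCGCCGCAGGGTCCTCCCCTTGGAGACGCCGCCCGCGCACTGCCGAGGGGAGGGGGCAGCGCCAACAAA
Col4a2: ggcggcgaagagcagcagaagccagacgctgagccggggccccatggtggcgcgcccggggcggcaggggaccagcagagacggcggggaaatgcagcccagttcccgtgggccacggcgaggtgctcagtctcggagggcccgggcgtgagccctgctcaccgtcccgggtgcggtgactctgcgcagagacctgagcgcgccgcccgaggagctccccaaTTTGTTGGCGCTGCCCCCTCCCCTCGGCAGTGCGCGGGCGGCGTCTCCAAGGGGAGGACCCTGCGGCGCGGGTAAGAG
The start sites are 21 bases apart. The letters CCAAT, searched on both strands, occur in both windows and in 37.4% of 32851 RefSeq promoter windows of this length. GGGCGG, a core of Sp1 sites, occurs in both windows and in 35.7% of all windows. TATAAA (13.6% of all windows), AGGTCA (the half-site of nuclear receptors, 16.3%) and AGGTCANAGGTCA (the direct repeat bound by PPAR with RXR, 0.0396%) do not occur in either.

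Col4a1 ranged from 509.9 to 702 CPM in controls (median 578) and from 351 to 459.9 CPM in knockouts (median 447). All 6 knockouts lay below the lowest control. The mean fell from 591 ± 63.2 to 423 ± 47.7 CPM (SD, n = 6 each), a log2 fold change of -0.48 (SE 0.10, adjusted p = 0.0339, edgeR quasi-likelihood). This call was kept when control 3, knockout 1 or knockout 2 was left out, and the adjusted p was between 0.0605 and 0.101 when any of the other 9 libraries was left out. With the pairs of libraries summed it was 0.329 at a fold change of -0.48, and without controls 2 and 6 and knockout 6 it was 0.170 at -0.42.

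Col4a2 ranged from 281 to 416 CPM in controls (median 329.7) and from 225 to 293 CPM in knockouts (median 259.7). Knockouts 1, 3, 4, 5 and 6 lay below all controls, and knockout 2 lay above control 3. Its log2 fold change was -0.41 (SE 0.10), with an unadjusted p of 0.0010 and an adjusted p of 0.0822 (edgeR quasi-likelihood), which misses the threshold. The FPKM ratio of Col4a2 to Col4a1 was 0.648 ± 0.0210 in controls against 0.683 ± 0.0344 in knockouts (SD, n = 6 each, two-sided exact permutation p = 0.0584, adjusted 0.0779). Without knockout 1, in which the ratio was 0.636, the adjusted p was 0.0260, and with the pairs averaged it was 0.114 (exact permutation).

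The minor type IV chains are those of specialised basement membranes such as that of the kidney filter. Col4a5, at 15.7 to 20.8 CPM in controls and 15.3 to 19.2 CPM in knockouts, had a log2 fold change of -0.06 and an interval from -0.25 to 0.13. The interval of Col4a1, from -0.70 to -0.27, does not reach that range, but the difference between the genes was not tested. Col4a4 was scarce, with 0.558, 0.691 and 1.01 CPM as lowest, median and highest control and 0.0561, 0.481 and 0.892 CPM in knockouts. Its fold change of -0.63 (SE 0.38, adjusted p = 0.700, edgeR quasi-likelihood) was not separable from 0 at this depth. Col4a6, the neighbour of Col4a5 on the X chromosome, stood at 1.14 ± 0.302 and 1.00 ± 0.475 CPM (SD, n = 6 each). Col4a3, the neighbour of Col4a4, was too low to test (0.280 and 0.301 CPM).

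**Figure D3:**
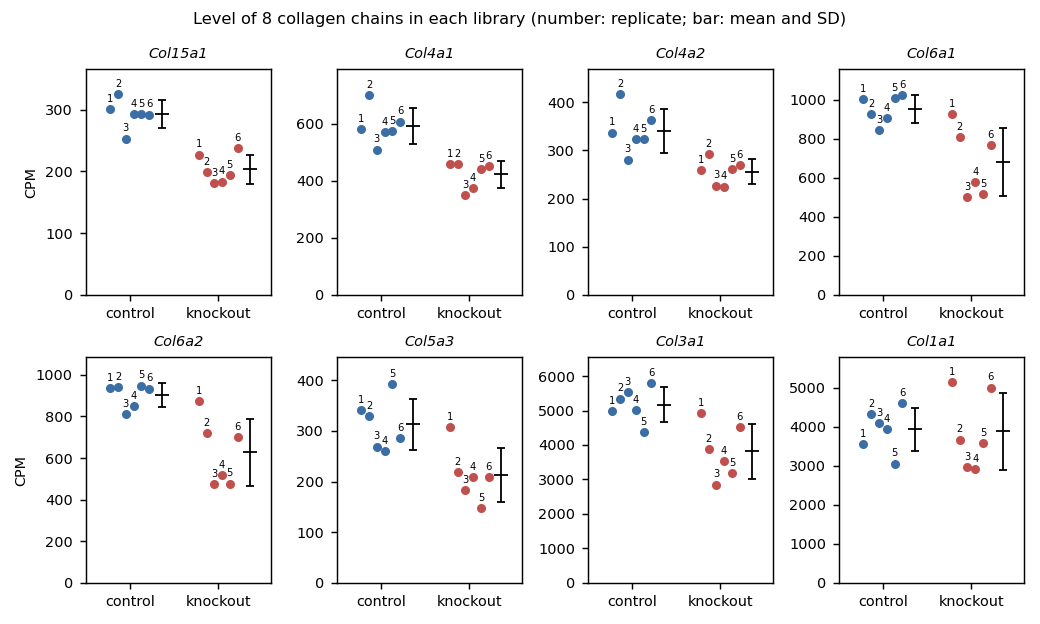
CPM of 8 collagen chains in each library (vertical axis from 0; numbers give the replicate, the bar the mean and SD of 6 libraries). Col15a1 and Col4a1 do not overlap between groups, and knockout 1 lies within the control range of Col6a1, Col6a2, Col5a3 and Col3a1.

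The 3 main chains of type VI collagen, Col6a1, Col6a2 and Col6a3, assemble 1 to 1 to 1 into the beaded filaments of the matrix around muscle fibres and fat cells, and their loss causes muscle disease in humans. Col6a1 (chr10:76708792-76726168) had 843, 965 and 1024 CPM as lowest, median and highest control and 500.1, 672 and 924 CPM in knockouts. Col6a2 (chr10:76595762-76623630), its neighbour 85161 bases away on the same strand, had 812, 935 and 948 CPM in controls and 476, 609 and 874 CPM in knockouts. For both genes knockouts 2 to 6 lay below all controls and knockout 1 lay among them. The log2 fold changes were -0.48 (SE 0.15, adjusted p = 0.206) and -0.53 (SE 0.15, adjusted p = 0.138, edgeR quasi-likelihood), short of the threshold. Without knockout 1, Col6a2 had a fold change of -0.65 and an adjusted p of 0.0315, and Col6a1 one of -0.59 with 0.0634 (edgeR quasi-likelihood). With the pairs of libraries summed, Col6a2 had an adjusted p of 0.549. The spread between knockouts was wide: the SD of Col6a1 was 71.5 CPM in controls and 175 CPM in knockouts.

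Col6a3, the large chain whose end is cut off as endotrophin, had 767, 863 and 884 CPM in controls and 507, 693 and 914 CPM in knockouts. Knockouts 2, 3, 4 and 5 lay below all controls and knockout 1 lay above all of them. Its fold change was -0.28 (SE 0.13, adjusted p = 0.528, edgeR quasi-likelihood). Within libraries the FPKM ratio of Col6a3 to Col6a1 was higher in knockouts, at 0.380 ± 0.0297 against 0.327 ± 0.0215 (SD, n = 6 each). The log2 difference was 0.22 (two-sided exact permutation p = 0.00649, adjusted 0.0130, and 0.0914 with the pairs averaged), and 4 knockouts lay above all controls. The ratio of Col6a2 to Col6a1 had a log2 difference of -0.05, with an exact permutation p of 0.119. The chains Col6a4, Col6a5 and Col6a6, which can stand in for Col6a3, lie in a row on chromosome 9 and were scarce. Col6a6 stood at 4.74 and 3.88 CPM in the group means and Col6a5 at 0.673 and 0.517 CPM, both with an adjusted p above 0.8 (edgeR quasi-likelihood), and Col6a4 was too low to test.

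None of the 11 fibrillar chains passed the threshold, and Col5a3 and Col3a1 were the 2 that were lower at an unadjusted p under 0.05. Type I collagen, the bulk of tendon and scar, is built from Col1a1 and Col1a2. Col1a1 (chr11:94936224-94953042) had 3058, 4024 and 4620.1 CPM as lowest, median and highest control and 2919, 3631 and 5149 CPM in knockouts. Knockouts 3 and 4 lay below all controls and knockouts 1 and 6 lay above all of them. The fold change was -0.02 (SE 0.17), with an interval from -0.39 to 0.35, so the data bound a change in either direction without showing its absence. Col1a2 had a fold change of -0.08 with an interval from -0.41 to 0.26. The FPKM ratio of Col1a2 to Col1a1 was 0.4995 ± 0.0165 in controls against 0.482 ± 0.0176 in knockouts (SD, n = 6 each), with an exact permutation p of 0.106. By the longest transcripts it was 1.05 in controls and 1.01 in knockouts, and the difference between groups on the log2 scale does not depend on the lengths.

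Type III collagen, a homotrimer of Col3a1 that prevails in early granulation tissue, showed lower values. Col3a1 (chr1:45311538-45349706) had 4376, 5178 and 5804 CPM in controls and 2853, 3711 and 4915 CPM in knockouts. Knockouts 2 to 5 lay below all controls, and knockouts 1 and 6 lay within their range. The fold change of -0.44 (SE 0.14, unadjusted p = 0.00784, adjusted p = 0.234, edgeR quasi-likelihood) did not pass the threshold. Set against Col1a1 in the same library, Col3a1 was lower in every knockout: the FPKM ratio was 0.826 to 0.957 in controls and 0.593 to 0.809 in knockouts. The log2 difference of -0.42 had the smallest p that the 924 assignments allow (two-sided exact permutation p = 0.00216, adjusted 0.0130, and 0.0914 with the pairs averaged). The ratio does not depend on how the libraries are scaled against each other.

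The type V chains are thought to set the diameter of type I fibrils. Col5a3 (chr9:20770050-20815067), a chain of the less common type V heterotrimer, had 260.3, 308 and 393 CPM in controls and 147, 209 and 308 CPM in knockouts. Knockouts 2 to 6 lay below all controls and knockout 1 among them. The fold change of -0.56 (SE 0.16) had an adjusted p of 0.139, of 0.0262 without knockout 1, at -0.69, and of 0.442 with the pairs summed (edgeR quasi-likelihood). The main type V chains had smaller fold changes, -0.06 for Col5a1 and -0.17 for Col5a2. The FPKM ratio of Col5a2 to Col5a1 fell from 0.887 ± 0.0276 to 0.826 ± 0.0233 (SD, n = 6 each, two-sided exact permutation p = 0.00433, adjusted 0.0130, and 0.0914 with the pairs averaged), with 5 knockouts below all controls. Col5a2 and Col3a1 are neighbours on chromosome 1, tail to tail and 24614 bases apart.

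**Figure D4:**
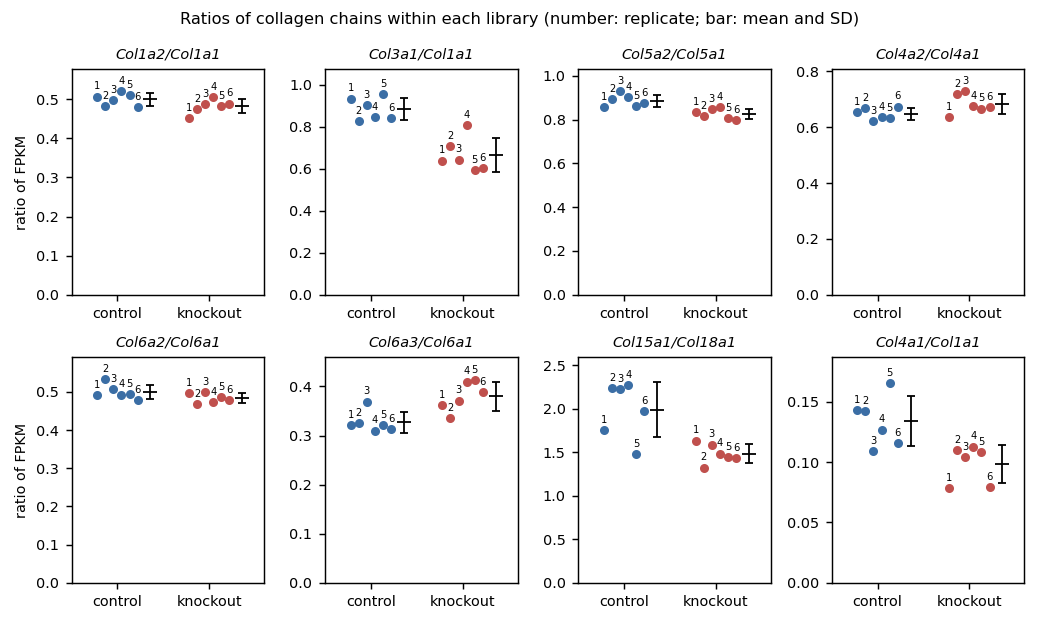
Ratio of the FPKM values of 2 collagen chains within each library (vertical axis from 0; numbers give the replicate, the bar the mean and SD of 6 libraries) for the 8 pairs compared. Col3a1 to Col1a1 does not overlap between groups (0.826 to 0.957 in controls, 0.593 to 0.809 in knockouts), and Col1a2 to Col1a1 and Col6a2 to Col6a1 overlap.

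Across classes, the FPKM ratio of Col4a1 to Col1a1 fell from 0.134 ± 0.0207 to 0.0988 ± 0.0157 (SD, n = 6 each), a log2 difference of -0.44 (two-sided exact permutation p = 0.00649, adjusted 0.0130). Knockouts 1, 3, 5 and 6 lay below all controls, and knockouts 2 and 4 lay just above control 3. Of the 8 ratios, 5 passed an adjusted p of 0.05. With each pair of libraries averaged to 1 sample, the smallest p that 4 against 3 samples allow is 0.0286, and all 5 had an adjusted exact permutation p of 0.0914. Without controls 2 and 6 and knockout 6 it was 0.0544 for each of the 5. The ratios are made from the same chains and libraries as the fold changes, so they are not separate support for these. Col4a1 to Col1a1 sets a called chain (-0.48) against one at -0.02, and Col15a1 to Col18a1 sets -0.52 against -0.13.

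The remaining fibrillar chains belong to cartilage and tendon or are of low level. Col27a1, a chain of cartilage and of tissue under tension, had 32.7, 34.8 and 39.2 CPM in controls and 24.0, 28.3 and 38.4 CPM in knockouts. Its fold change was -0.23 (SE 0.12, adjusted p = 0.600, edgeR quasi-likelihood). Col24a1, Col2a1 and Col11a2 had fold changes of 0.21, 0.11 and -0.05, with adjusted p above 0.9. Col11a1, a chain of type XI collagen, varied more within controls than between groups. Controls 1 and 5 had 7.13 and 7.86 CPM and the other 4 had 38.1 to 47.4 CPM, while knockouts had 11.05 to 37.6 CPM. The tenocyte marker tenomodulin, Tnmd, had 8.89 and 10.8 CPM in the same controls and 53.7 to 83.3 CPM in the other 4. Not all tenocyte markers were spread so widely: Scx spanned only 14.9 to 29.6 CPM over all controls. Its fold change was 0.38 (adjusted p = 0.741, edgeR quasi-likelihood), the only positive one on the list. The summed level of the 8 tenocyte markers, all tested, was 299 and 216 CPM in controls 1 and 5, 533 to 997 CPM in the other controls and 292 to 536 CPM in knockouts. None of these markers was at 0 in any library, and their part in the spread of Col11a1 was not tested.

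**Figure D5:**
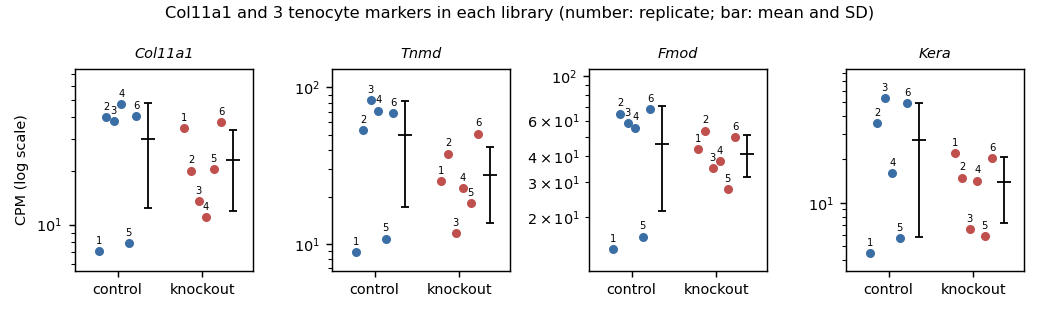
CPM of Col11a1 and of the tenocyte markers Tnmd, Fmod and Kera in each library (log axis; numbers give the replicate, the bar the mean and SD of 6 libraries). Controls 1 and 5 are the lowest controls in each panel, with Col11a1 at 7.13 and 7.86 CPM. The markers drawn are part of a list of 8, and Scx, not drawn, spanned 14.9 to 29.6 CPM in controls.

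FACIT chains showed no common direction. Col22a1, which is deposited at the junction of muscle and tendon, had 2.69, 3.65 and 4.71 CPM in controls and 2.54, 6.05 and 10.8 CPM in knockouts. Knockouts 1 to 5 lay above all controls and knockout 6 lay below all of them. The fold change of 0.84 (SE 0.28) was the highest value among the 41 tested chains and had an adjusted p of 0.265 (edgeR quasi-likelihood). Col14a1, which binds fibrils through decorin, had 95.0, 128 and 153 CPM in controls and 78.6, 94.7 and 122 CPM in knockouts. Knockouts 3, 4 and 5 lay below all controls. Its fold change was -0.35 (SE 0.13, adjusted p = 0.350, edgeR quasi-likelihood).

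Col12a1, the FACIT of tendon and of load-bearing matrix, was at 143 ± 31.9 CPM in controls against 146 ± 45.1 CPM in knockouts (SD, n = 6 each). Col16a1 had 86.8, 112 and 123 CPM in controls and 80.6, 109 and 149 CPM in knockouts. Its fold change of -0.0014 turned positive (0.0079 to 0.016) when the libraries were scaled by relative log expression, by the upper quartile or by DESeq2, so it has no direction. Col20a1 had 3.50, 13.6 and 16.7 CPM in controls and 8.19, 14.2 and 18.7 CPM in knockouts, with a fold change of 0.11 that was -0.083 without control 6. Its exons share 79 bases with BX649560.1 on the same strand, a gene with 2264 counts against 3317. Col9a2, Col9a3 and Col19a1 had means near 1 CPM and adjusted p above 0.9, and Col9a1 was too low to test.

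The other chains are those of anchoring fibrils, short-chain networks and transmembrane collagens, together with Col26a1 and Col28a1, the chains of types XXVI and XXVIII. Of these 10 chains, 9 had positive fold changes and none passed the test. Col25a1, a transmembrane collagen of developing muscle needed for its innervation, had 0.684, 1.08 and 1.57 CPM in controls and 1.08, 1.82 and 2.35 CPM in knockouts, with 4 knockouts above all controls. Its fold change was 0.56 (SE 0.25, unadjusted p = 0.0423, adjusted p = 0.491, edgeR quasi-likelihood). Col23a1, another transmembrane collagen, had 16.4, 17.6 and 23.1 CPM in controls and 13.5, 23.0 and 37.4 CPM in knockouts, and 3 knockouts lay above all controls. Its fold change was 0.36 (SE 0.20, adjusted p = 0.644, edgeR quasi-likelihood).

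Col26a1 had 6.85, 10.3 and 14.6 CPM in controls and 10.4, 11.4 and 17.8 CPM in knockouts (fold change 0.25, SE 0.17). Col8a1, a short-chain collagen of vessel walls, had 85.8, 122 and 201 CPM in controls and 125, 149 and 165 CPM in knockouts (fold change 0.18, SE 0.16). Both pairs of ranges overlapped. Col8a2, Col7a1, Col17a1, Col13a1, Col28a1 and Col10a1 had fold changes of 0.44, 0.24, 0.18, 0.17, 0.13 and -0.06, with adjusted p above 0.8 (edgeR quasi-likelihood).

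Genes that modify, fold, secrete, cut and cross-link collagen were counted from a list of 35. Of these, 34 were tested, none passed the threshold, 21 had negative and 13 positive fold changes, and the median was -0.07. At an unadjusted p under 0.05 (edgeR quasi-likelihood), 2 of the 34 were lower and 2 were higher. Of all tested genes, 5.68% were lower and 3.79% higher by this measure, and 50.5% had negative fold changes. Bmp1, the proteinase that removes the C-propeptide of fibrillar procollagens, had 203 ± 17.0 CPM in controls against 169 ± 11.4 CPM in knockouts (SD, n = 6 each), a fold change of -0.26 (SE 0.07, adjusted p = 0.139, edgeR quasi-likelihood). Colgalt2, a glycosyltransferase of collagen hydroxylysine, had a fold change of -0.43 (adjusted p = 0.404). Loxl3, a lysyl oxidase of cross-linking, and P4ha2, a prolyl hydroxylase subunit, had values of 0.36 and 0.29 (adjusted p = 0.284 and 0.345, edgeR quasi-likelihood). The collagen chaperone Serpinh1 stood at 772 ± 111 and 663 ± 154 CPM (SD, n = 6 each).

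Of 22 receptors and binding partners of collagens, 21 were tested, none passed the threshold, 18 had negative and 3 positive fold changes, and the median was -0.20. At an unadjusted p under 0.05 (edgeR quasi-likelihood), 6 of the 21 were lower and 1 was higher, where 5.68% and 3.79% of all tested genes were. Negative fold changes were found in 50.5% of all tested genes. Nid1, nidogen, which links the type IV network to laminin, had 356 ± 51.7 CPM in controls against 262 ± 40.9 CPM in knockouts (SD, n = 6 each), a fold change of -0.45 (SE 0.12, adjusted p = 0.125, edgeR quasi-likelihood). Itga1, the integrin subunit of a type IV collagen receptor, and Dcn, the fibril-binding proteoglycan decorin, had fold changes of -0.39 and -0.48 (adjusted p = 0.207 and 0.277). Ddr1, a receptor tyrosine kinase activated by collagen, had 43.6 ± 4.08 and 52.4 ± 5.25 CPM (fold change 0.27, adjusted p = 0.185, edgeR quasi-likelihood).

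Markers of fat cells, fibroblasts and tenocytes had mostly lower values in knockouts, and few of them passed the threshold. Of all tested genes, 0.75% were called lower and 50.5% had negative fold changes. All 10 adipocyte markers had negative fold changes (median -1.69), 2 of them, Fabp4 and Adrb3, past the threshold, and their summed level was 2547 to 4438 CPM in controls and 427 to 1824 CPM in knockouts. Among knockouts, the adipocyte sum was lowest in knockouts 5 and 6 (427 and 628 CPM) and highest in knockouts 1 and 2 (1824 and 1582 CPM). Col15a1 and Col4a1 were lowest in knockouts 3 and 4. Col15a1 was highest among knockouts in knockout 6, and Col4a1 in knockouts 2 and 1 (459.9 and 458.6 CPM). Knockout 1 lay among or above the controls for Col6a1, Col6a2, Col6a3 and Col5a3, and knockout 2 lay below all controls for each of these chains. A link between the adipocyte sum and these chains was not tested. Of 11 markers of fibro-adipogenic progenitors and fibroblasts, 9 had negative fold changes (median -0.20) and 1, Gsn, passed the threshold, while Pdgfra, Cd34 and Ly6a had adjusted p from 0.688 to 0.935 (edgeR quasi-likelihood). At an unadjusted p under 0.05, 4 of the 11 were lower, where 5.68% of all tested genes were, and none was higher. Beside Gsn these were Clec3b (-0.86), Dcn (-0.48) and Lum (-0.52), with adjusted p of 0.0939, 0.277 and 0.305 (edgeR quasi-likelihood). The sum of the 11 markers was 1832 to 2579 CPM in controls and 1277 to 1998 CPM in knockouts. Of the 8 tenocyte markers 7 had negative fold changes (median -0.54) and none passed the threshold, with median sums of 635 CPM in controls and 422 CPM in knockouts. All 3 sums lean on abundant genes. In controls Fabp4 had a mean of 2238 CPM, where the median adipocyte sum was 3248 CPM. Gsn had 845 CPM, where the fibroblast sum was 2266 CPM, and Thbs4 had 383 CPM of the tenocyte sum. Dcn and Lum are on the fibroblast list and on that of collagen partners, as Fmod and Kera are on the tenocyte list.

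Endothelial markers, of cells that also make type IV collagen, summed to 269 to 353 CPM in controls and 196 to 342 CPM in knockouts, with 7 of 8 negative and a median of -0.08. None of the 8 mural, 6 macrophage and 6 muscle markers passed the threshold, with medians of 0.02, -0.05 and 0.25. Neither did the tested markers of Schwann cells (6 of 7), osteoblasts (4 of 5), chondrocytes (3 of 6) or epidermis (1 of 5). Fold changes were positive for all 6 muscle markers, all 4 tested osteoblast markers and 5 of the 8 mural markers. They were also positive for 3 Schwann cell markers, 2 macrophage markers and 1 chondrocyte marker, and negative for the epidermal one. Of all 16393 tested genes, 8122 had positive fold changes. No listed marker was at 0 in all libraries, while 3 chondrocyte markers, 4 epidermal markers and 1 osteoblast marker were at 0 in some. The part of these cell types in the collagen values was not tested.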

How the data were processed

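RNA of whole muscle was sequenced as 12 libraries after poly-T selection, per the labels' protocols. These describe a directional and a non-directional library without saying which was made. The deposited table of the authors holds raw read counts per gene, made with fastp, HISAT2 2.0.5 and featureCounts on GRCm38 (mm10), as the submitters' processing notes name them. The strand setting and annotation release are not given in the sources used here. A second deposited table holds the authors' FPKM values. Its gene lengths equal the summed exon lengths of GENCODE M21 for all collagen chains but Col11a2 and Col17a1. For these they are 6831 against 6874 bases and 5765 against 6011 bases.

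Counts were tested with edgeR 4.0.16 (R 4.3.3): filterByExpr defaults (minimum count 10, minimum total 15), TMM scaling, robust quasi-likelihood F tests of knockout against control over 16393 genes, and Benjamini-Hochberg adjustment with a threshold of 0.05. The fit was tested on simulated data. CPM use the TMM library sizes. The standard error is the fold change over the root of F, and 95% intervals follow from it. Precision rests on totals of 15716056 to 29790720 counts per library. For 8 chain ratios, the log2 ratio of FPKM within a library was compared by an exact permutation test, two-sided, over all 924 assignments, with Benjamini-Hochberg adjustment over the 8. Promoter windows and start sites are from RefSeq (GRCm38.p6), with 38 windows for 35 of the 44 members.

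The members, classes, lists and rules were chosen with earlier results of these data known. Chains are given with values for being past the threshold, among the 3 of their class with the smallest p, or highest of their class in FPKM, and list genes for being among the 4 with the smallest p. Col11a1, Serpinh1, Tnmd, Scx and the chains outside this rule were added after their values were seen. Among the 30 same-group pairs of libraries, every pair was further apart than sampling noise (chi-square per degree of freedom 12.9 to 157), so none was counted as a duplicate. Alternatives were relative log expression and upper quartile scaling, DESeq2 1.42.0, limma-voom and limma-trend on FPKM (limma 3.58.1, pseudocount 1), a fit without the low count filter, a block for the replicate number, the mitochondrial share as a covariate, and each library left out. The summing of counts over libraries that agreed at 75% or more of the discrete loci was added after the data were seen. So was a fit without the 3 libraries lowest in the muscle marker sum.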

Additional observations from a re-analysis of the deposited data

Results flagged for a closer look

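In 82 groups of 6 libraries (41 tested chains in 2 groups), 3 held a library far from the other 5, with a gap of more than 0.625 of the group's range; chance alone gives this in about 1 in 20 groups. Col6a6, a minor type VI chain, was at 2.51 CPM in knockout 5, below the next library at 3.87 CPM. Col20a1, a FACIT chain, was at 3.50 CPM in control 6, below the next control at 12.3 CPM. Col10a1, the type X chain of hypertrophic cartilage, was at 3.40 CPM in control 6, above the next control at 1.75 CPM.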

How the results depend on the processing

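The 2 chains called lower, Col15a1 and Col4a1, were called again under relative log expression or upper quartile scaling, without the low count filter and with limma-trend on FPKM, and with the mitochondrial share as a covariate Col4a2 joined them. DESeq2 called 5 chains lower (with Col4a2, Col5a3 and Col6a2; 387 genes in all against 131) and limma-voom with quality weights called 6 (with Col3a1, Col4a2, Col6a1 and Col6a2; 389 genes). With each library left out the count was 0 to 4. It was 0 without control 2, control 4, knockout 3 or knockout 4 (24, 12, 6 and 9 genes in all). It was 4 without knockout 1 (200 genes). With libraries summed over the sets that agreed at the discrete loci it was 0, as for all genes (edgeR quasi-likelihood; 1127 genes at an unadjusted p under 0.05). Without controls 2 and 6 and knockout 6, low in the muscle marker sum, it was 0 too (9 genes in all). For the biosynthesis list the count was 1 with DESeq2 and 0 to 1 with a library left out.

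Replicate numbers did not pair the libraries: correlations between same-numbered libraries ran from -0.13 to 0.46, and libraries of numbers 4 and 6 alone matched their own number best. With the replicate block, 5 chains were called lower (with Col14a1, Col4a2 and Col6a2; 236 genes). Under sign flips of the 6 pairs the smallest possible p is 0.0313, and the 5 ratios that had passed, Col3a1/Col1a1 (-0.42), Col5a2/Col5a1 (-0.10), Col6a3/Col6a1 (0.22), Col15a1/Col18a1 (-0.41) and Col4a1/Col1a1 (-0.44), had an adjusted p of 0.05. As means over the sets they were -0.42, -0.093, 0.23, -0.39 and -0.43, and without the 3 libraries low in muscle markers -0.43, -0.093, 0.19, -0.35 and -0.40 (adjusted p = 0.0544, exact permutation). Col4a2/Col4a1 ran from 0.056 to 0.095 with a library left out, and past the threshold without knockout 1.

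Of the 41 tested chains, 13 changed sign with a library left out: Col2a1, Col11a2, Col4a6, Col9a2, Col9a3, Col12a1, Col19a1, Col10a1, Col17a1 and Col28a1 beside 3 described in full. These were Col1a1 (-0.12 to 0.062, and 0.0028 without the 3 libraries low in muscle markers), Col20a1 (-0.083 to 0.22) and Col16a1 (-0.11 to 0.084, and 0.0096 under relative log expression, 0.016 under the upper quartile, 0.0079 with DESeq2 and 0.0082 without the filter). The cause was not tested. Chains below about 1 CPM are limited by depth.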
